A study of Rattus norvegicus with 12 samples.

Results

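Blood vessels of the rat kidney were followed through 10 genes that mark the renal endothelium or signal to it, Vegfa, Angpt2, Kdr, Flt1, Tek, Pecam1, Cdh5, Emcn, Ehd3 and Plvap. They were taken by symbol from both deposited tables of gene expression, and 9 of the 10 had an entry, each of them 1 entry in each table, among 22132 entries in the first table and 32623 in the second. Pecam1, the gene of CD31, matched no entry and was not analysed here. RNA of renal tissue was sequenced from 12 male SD rats of wild-type genotype, 8 weeks old at purchase, 3 in each of 4 groups. The control group received saline and the adenine group adenine by gavage (220 mg/kg each day over 3 weeks). The sham group was operated on without ligation, and in the UUO group (unilateral ureteral obstruction) the left ureter was tied, with kidneys taken after 2 weeks. Both are models of renal fibrosis (RF), and the question here is how the endothelial and angiogenic genes stood in each model against its own control group. The tissue holds many kinds of kidney cells, so fewer endothelial cells and less RNA per endothelial cell cannot be told apart in any result below. The part of the kidney that was sampled is not stated, which limits every result in the same way. Whether the tied or the other kidney of the UUO rats was sequenced is not stated either.

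The endothelium of the kidney is divided into the fenestrated capillaries of the glomerulus, the peritubular capillaries and vasa recta, and larger vessels. Podocytes and tubule cells secrete VEGF-A (Vegfa), which acts on endothelial cells through the receptor VEGFR2 (Kdr), while VEGFR1 (Flt1) binds it tightly and can act as a decoy. Angiopoietin-2 (Angpt2) is a ligand of the receptor TIE2 (Tek) that can oppose angiopoietin-1. VE-cadherin (Cdh5) joins endothelial cells to each other, endomucin (Emcn) is a sialomucin of capillary and venous endothelium, EHD3 is a membrane trafficking protein known in the kidney from glomerular endothelium, and PLVAP forms the diaphragms of fenestrae and caveolae.

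Values are FPKM, fragments relative to transcript length and to all mapped fragments, as the authors deposited them, so levels of different genes can be set side by side. The tables were tested separately with limma on log2(FPKM + 0.1), over 15029 entries for adenine against control and 15043 for UUO against sham that reached an FPKM of 0.5 in at least 3 of 6 libraries. An entry "rose" or "fell" where the Benjamini-Hochberg adjusted p over all these entries was under 0.05, and a DEG also changed by at least 2 on the log2 scale in either direction. All 9 genes were tested in both tables. No test was made across the tables, which differ in their entries and lowest values. The summed FPKM was 564972 to 582725 in control libraries, 468389 to 487770 in adenine, 619664 to 630244 in sham and 528811 to 539011 in UUO, and the number of reads is unknown. The median change over all tested entries, on the log2 scale, was 0.30 for adenine and 0.62 for UUO, and 0.0014 and 0.023 after median-of-ratios scaling, which aligns the libraries on their typical gene. The share of changed entries that rose went from 66.5% to 49.9% in the adenine comparison and from 79.6% to 49.4% in the UUO comparison with that scaling, while rescaling FPKM to one common sum gave 78.2% and 85.0%. For the 9 genes, changes are given in both ways wherever median-of-ratios scaling ended a call or turned its direction.

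In the undiseased kidneys Vegfa had the highest level of the 9 genes, at 73.9 ± 14.3 FPKM (SD, n = 3) in control kidneys and 57.2 ± 7.81 in sham kidneys. Emcn, with 51.0 ± 5.93 in control and 49.9 ± 4.83 in sham, and Plvap, with 42.4 ± 16.4 and 40.0 ± 8.41, came next, and their libraries overlapped with each other in both groups. Control means of Tek, Ehd3 and Kdr lay between 7.77 and 8.79 FPKM and also overlapped. Flt1, Cdh5 and Angpt2 had the lowest control means, 5.30, 4.90 and 2.83 FPKM. The same 3 genes were the lowest in sham, at 7.11, 7.57 and 3.94 FPKM.

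**Figure D1:**
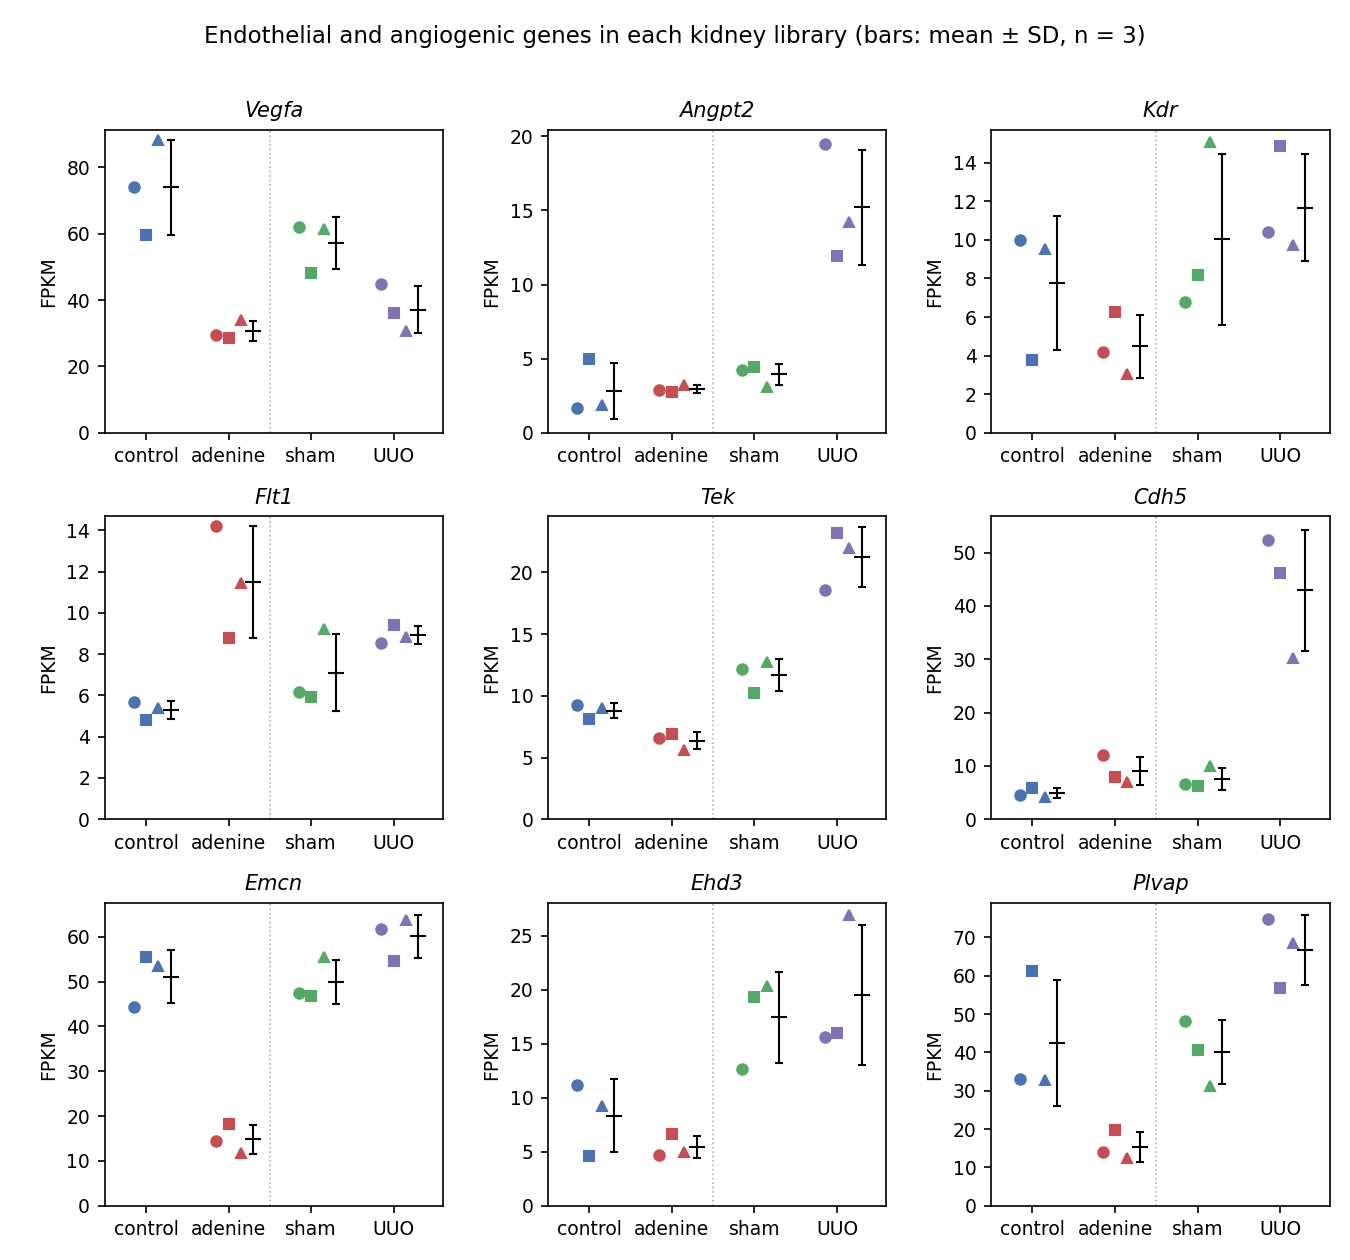
FPKM of the 9 genes in each library, 3 per group, with one panel per gene and a linear axis from 0. Circles, squares and triangles are replicates 1, 2 and 3, black bars are the mean ± SD, and the dotted line parts the 2 tables. Emcn and Plvap sit below their controls in every adenine library, and Cdh5 and Angpt2 sit above every sham library in the UUO group.

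In the adenine model the genes split. Vegfa, Emcn, Plvap and Tek fell, Flt1 and Cdh5 rose, and Kdr, Ehd3 and Angpt2 did not pass the test. Thus 2 of 9 rose (22.2%) and 4 of 9 fell (44.4%), where 39.6% of all tested entries rose and 19.9% fell. The median log2 fold change of the 9 was -0.54, beside 0.30 over all tested entries. None of the 9 was a DEG by limma, the largest change being -1.79 for Emcn (-2.09, and a DEG, with median-of-ratios scaling), while 10.7% of all entries were DEGs that rose and 5.03% DEGs that fell. The groups did not overlap for 6 of the 9, against 68.0% of all entries.

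In the UUO model, Cdh5, Angpt2, Tek and Plvap rose, Vegfa fell, and Kdr, Flt1, Emcn and Ehd3 did not pass. This was 4 of 9 that rose (44.4%) and 1 of 9 that fell (11.1%), against 56.1% and 14.4% of all tested entries. Cdh5 was the 1 DEG, where 13.2% of all entries were DEGs that rose and 4.21% DEGs that fell. The median log2 fold change of the 9 was 0.35, below the 0.62 of all tested entries, and the groups did not overlap for 5 of the 9, against 75.7% of all entries. With median-of-ratios scaling the counts were 1 that rose and 4 that fell in the adenine model, and 2 that rose and 2 that fell in the UUO model.

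**Figure D2:**
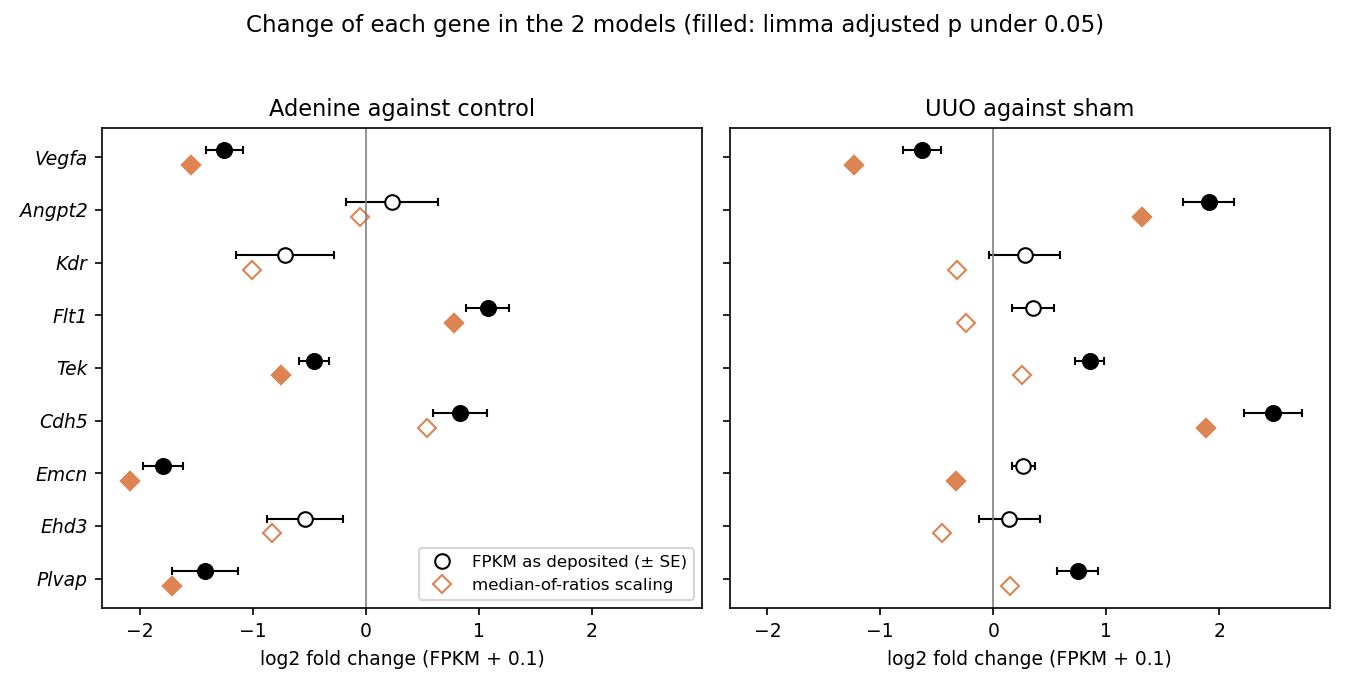
Log2 fold change of each gene in the adenine model (left) and the UUO model (right). Black circles are fits of FPKM as deposited with their standard errors, orange diamonds are fits after median-of-ratios scaling, and filled symbols passed an adjusted p of 0.05. Every diamond lies left of its circle, and Kdr, Flt1, Emcn and Ehd3 in UUO and Angpt2 in adenine change side of 0.

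Among the ligands, Vegfa was lower in both models. Vegfa FPKM was 74.1, 59.6 and 88.1 in the 3 control libraries and 29.5, 28.5 and 34.0 in the adenine libraries. All adenine libraries lay below all controls and close to each other. The log2 fold change was -1.25 (standard error 0.16, adjusted p = 0.00077 in limma), that is 2.38-fold lower, and the call held under all 15 alternatives, with values between -1.68 and -0.98. Sham libraries had 62.0, 48.2 and 61.4 FPKM of Vegfa, and UUO libraries 44.7, 36.0 and 30.6. The UUO libraries were again all below the others, by a smaller margin, with a log2 fold change of -0.63 (standard error 0.17, adjusted p = 0.012 in limma). It was -1.23 after median-of-ratios scaling and -0.41, with an adjusted p of 0.053, when FPKM was rescaled to the same sum.

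Angpt2, the other ligand, moved apart from Vegfa. In sham it was 4.24, 4.47 and 3.11 FPKM, and in UUO 19.5, 11.9 and 14.2. Every UUO library was above every sham library, and the log2 fold change was 1.91 (standard error 0.22, adjusted p = 0.00034 in limma), or 1.32 with median-of-ratios scaling. In the adenine libraries Angpt2 was steady at 2.88, 2.74 and 3.23 FPKM, while the controls spread from 1.64 and 1.85 in replicates 1 and 3 to 4.98 in replicate 2. The groups overlapped, and the log2 fold change of 0.23 (standard error 0.41, adjusted p = 0.64 in limma) turned to -0.05 with median-of-ratios scaling and to 0.72 (adjusted p = 0.019) without control replicate 2.

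Of the receptors for VEGF, Flt1 passed in the adenine model and Kdr did not. Flt1 was 5.70, 4.82 and 5.37 FPKM in control and 14.2, 8.80 and 11.4 in adenine, so that all adenine libraries were higher. Its log2 fold change was 1.08 (standard error 0.19, adjusted p = 0.0032 in limma) and it passed under every one of the 15 alternatives. Kdr was 10.002, 3.77 and 9.53 FPKM in control and 4.16, 6.25 and 3.04 in adenine. The second control library was as low as the adenine libraries, the groups overlapped, and the log2 fold change of -0.72 (standard error 0.43, adjusted p = 0.19 in limma) did not pass. Without control replicate 2 it was -1.17 (adjusted p = 0.022). In the UUO model neither receptor passed. Flt1 had 6.15, 5.94 and 9.24 FPKM in sham and 8.55, 9.43 and 8.84 in UUO, with a log2 fold change of 0.35 (standard error 0.19, adjusted p = 0.13 in limma). Kdr had 6.78, 8.20 and 15.1 FPKM in sham and 10.4, 14.9 and 9.72 in UUO, a log2 fold change of 0.28 (standard error 0.32, adjusted p = 0.45 in limma). For both, the third sham library was the highest of its group and overlapped with UUO, and both changes turned negative with median-of-ratios scaling (-0.24 and -0.32). Without sham replicate 3 they were 0.56 (adjusted p = 0.010) and 0.61 (adjusted p = 0.050, just inside the threshold).

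Tek, the angiopoietin receptor, went in opposite directions. Control libraries had 9.27, 8.11 and 8.98 FPKM and adenine libraries 6.59, 6.91 and 5.63. The adenine libraries were all lower, with little spread, and the log2 fold change was -0.46 (standard error 0.13, adjusted p = 0.022 in limma). This call was lost (adjusted p = 0.24) when FPKM was rescaled to the same sum, and also without control replicate 1, control replicate 3 or adenine replicate 3 (adjusted p from 0.063 to 0.073). Sham libraries had 12.1, 10.2 and 12.7 FPKM and UUO libraries 18.6, 23.2 and 21.9. These groups were again apart, now with UUO higher, and the log2 fold change was 0.85 (standard error 0.13, adjusted p = 0.0011 in limma), falling to 0.26 (adjusted p = 0.12) with median-of-ratios scaling.

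Cdh5, the junction cadherin found on nearly all endothelium, had the largest rise of the 9 genes. FPKM was 6.53, 6.25 and 9.93 in sham and 52.3, 46.2 and 30.2 in UUO. Even the lowest UUO library was well above the highest sham library, and the log2 fold change was 2.48 (standard error 0.26, adjusted p = 0.00020 in limma), which is 5.58-fold, or 1.88 with median-of-ratios scaling. In the other model it was 4.55, 5.93 and 4.23 FPKM in control and 11.98, 7.92 and 7.03 in adenine. The adenine libraries were all higher by a smaller step, with a log2 fold change of 0.84 (standard error 0.24, adjusted p = 0.021 in limma). The adenine call did not hold with median-of-ratios scaling (0.54, adjusted p = 0.11) or without control replicate 1 or 3 (adjusted p = 0.059 and 0.065).

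Emcn and Plvap, the capillary surface genes, had the patterns most like each other among the members, with a root mean square difference of 0.33 log2 units over the 12 libraries after centring within each table. Emcn was 44.3, 55.4 and 53.5 FPKM in control and 14.4, 18.3 and 11.8 in adenine. Every adenine library was well under the lowest control, and the log2 fold change of -1.79 (standard error 0.18, adjusted p = 0.00028 in limma), 3.47-fold lower, was the largest fall of the 9. It stayed between -2.09 and -1.53 over the 15 alternatives. Plvap was 33.0, 61.3 and 32.9 FPKM in control and 14.1, 19.7 and 12.3 in adenine, with the second control library high and all adenine libraries below all controls. Its log2 fold change was -1.42 (standard error 0.29, adjusted p = 0.0054 in limma), and -1.12 (adjusted p = 0.0069) without control replicate 2.

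In the UUO model neither gene fell in FPKM as deposited. Emcn was 47.4, 46.9 and 55.5 FPKM in sham and 61.8, 54.5 and 63.8 in UUO. The groups overlapped by 1 library, and the log2 fold change was 0.27 (standard error 0.10, adjusted p = 0.054 in limma). Its direction depends on the scaling, -0.33 (adjusted p = 0.021) with median-of-ratios scaling and 0.49 (adjusted p = 0.0041) when rescaled to the same sum. Plvap rose from 48.1, 40.6 and 31.3 FPKM in sham to 74.9, 56.7 and 68.4 in UUO, with all UUO libraries higher. The log2 fold change was 0.75 (standard error 0.18, adjusted p = 0.0082 in limma), and 0.15 (adjusted p = 0.53) with median-of-ratios scaling. Whether the changes of Emcn, Plvap and Tek differ between the models was not tested.

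Promoter sequences are shown for the pair Emcn and Plvap, which both fell in the adenine model, and for Vegfa, the ligand that fell in both models. They come from the RefSeq tables of build GRCr8, where 6 of the 10 genes matched, and give the 250 bases before the start of the transcript in its own direction. In Emcn and Plvap the capitals mark GGAA or its complement TTCC, the core of sites bound by ETS factors such as the endothelial regulators Erg and Fli1. In Vegfa the capitals mark GGGCGG or its complement CCGCCC, the GC box bound by Sp1. These windows are chr2:228564289-228564538 (plus strand) for Emcn, chr16:18231280-18231529 (minus strand) for Plvap and chr9:22452604-22452853 (plus strand) for Vegfa.
Emcn: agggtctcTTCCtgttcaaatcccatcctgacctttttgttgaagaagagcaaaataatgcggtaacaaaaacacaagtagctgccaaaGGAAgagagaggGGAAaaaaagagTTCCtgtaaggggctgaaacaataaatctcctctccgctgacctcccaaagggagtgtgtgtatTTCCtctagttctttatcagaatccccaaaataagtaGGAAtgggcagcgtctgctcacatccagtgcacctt
Plvap: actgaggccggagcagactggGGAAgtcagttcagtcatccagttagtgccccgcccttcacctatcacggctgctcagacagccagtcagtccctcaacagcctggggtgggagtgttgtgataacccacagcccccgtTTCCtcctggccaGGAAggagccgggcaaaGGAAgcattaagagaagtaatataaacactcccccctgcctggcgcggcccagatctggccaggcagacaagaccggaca
Vegfa: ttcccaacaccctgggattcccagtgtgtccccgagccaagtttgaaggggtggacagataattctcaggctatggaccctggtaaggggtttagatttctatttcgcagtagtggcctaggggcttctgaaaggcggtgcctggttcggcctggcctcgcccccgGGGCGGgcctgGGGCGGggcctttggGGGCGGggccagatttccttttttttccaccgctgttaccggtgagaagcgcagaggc

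Emcn held 6 copies of GGAA on either strand and Plvap 4. Of 33469 RefSeq promoter windows of this length, 93.2% held at least 1 copy, 9.27% at least 6 and 34.7% at least 4, so the letters themselves are common. The 3 copies of GGGCGG in the Vegfa window, 1 of 2 entries for this gene, were matched or exceeded by 7.41% of all windows, and 30.5% held at least 1. The other Vegfa entry held 0 copies. Flt1 also held 3 copies. The copies are matches of letters and were not tested as binding sites.

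Ehd3, the gene of the glomerular endothelium, did not pass in either model. It was 11.2, 4.63 and 9.22 FPKM in control and 4.71, 6.63 and 4.96 in adenine, with the second control library the lowest of all 6. The log2 fold change was -0.54 (standard error 0.34, adjusted p = 0.21 in limma), and -0.91 (adjusted p = 0.012) without that library. Sham libraries had 12.6, 19.4 and 20.4 FPKM and UUO libraries 15.6, 16.0 and 27.0. The groups overlapped, with a log2 fold change of 0.14 (standard error 0.27, adjusted p = 0.65 in limma) that turned to -0.45 with median-of-ratios scaling. Kdr was the member nearest to Ehd3 in pattern, with a root mean square difference of 0.37 log2 units.

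The second control library stood apart in several of these genes and in markers of other cells. It had the lowest Kdr and Ehd3 and the highest Plvap and Angpt2 of the control group. Nphs1, the nephrin gene of podocytes, was 2.38 FPKM in it against 13.2 and 16.4 in the other controls. Slc12a3, the salt transporter of the distal tubule, was 12.9 against 197 and 164 FPKM. Slc14a1, the urea transporter of the descending vasa recta, was 8.21 against 0.14 and 0.18 FPKM, and Vwf, von Willebrand factor of larger vessels, was 13.4 against 3.995 and 3.23. The summed FPKM of the 7 podocyte markers was 36.7 in this library and 169 and 225 in the others. Leukocyte and platelet markers, in contrast, summed to 29.3 FPKM there and 28.4 and 27.1 in the others, far under the 485 to 764 of the adenine libraries. In the adenine group, replicate 2 had the highest Nphs1 (4.74), Slc12a3 (88.9), Kdr and Ehd3. Without control replicate 2 all 9 genes passed, 3 that rose (Angpt2, Flt1, Cdh5) and 6 that fell, when 37.9% of all entries rose and 18.7% fell. With median-of-ratios scaling as well, 1 rose and 6 fell. Angpt2 (limma adjusted p = 0.080) and Cdh5 (limma adjusted p = 0.070) then did not pass. The library was singled out partly by its values of these genes, so the counts without it are no independent support. The part of podocyte or tubule content in these values was not tested.

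**Figure D3:**
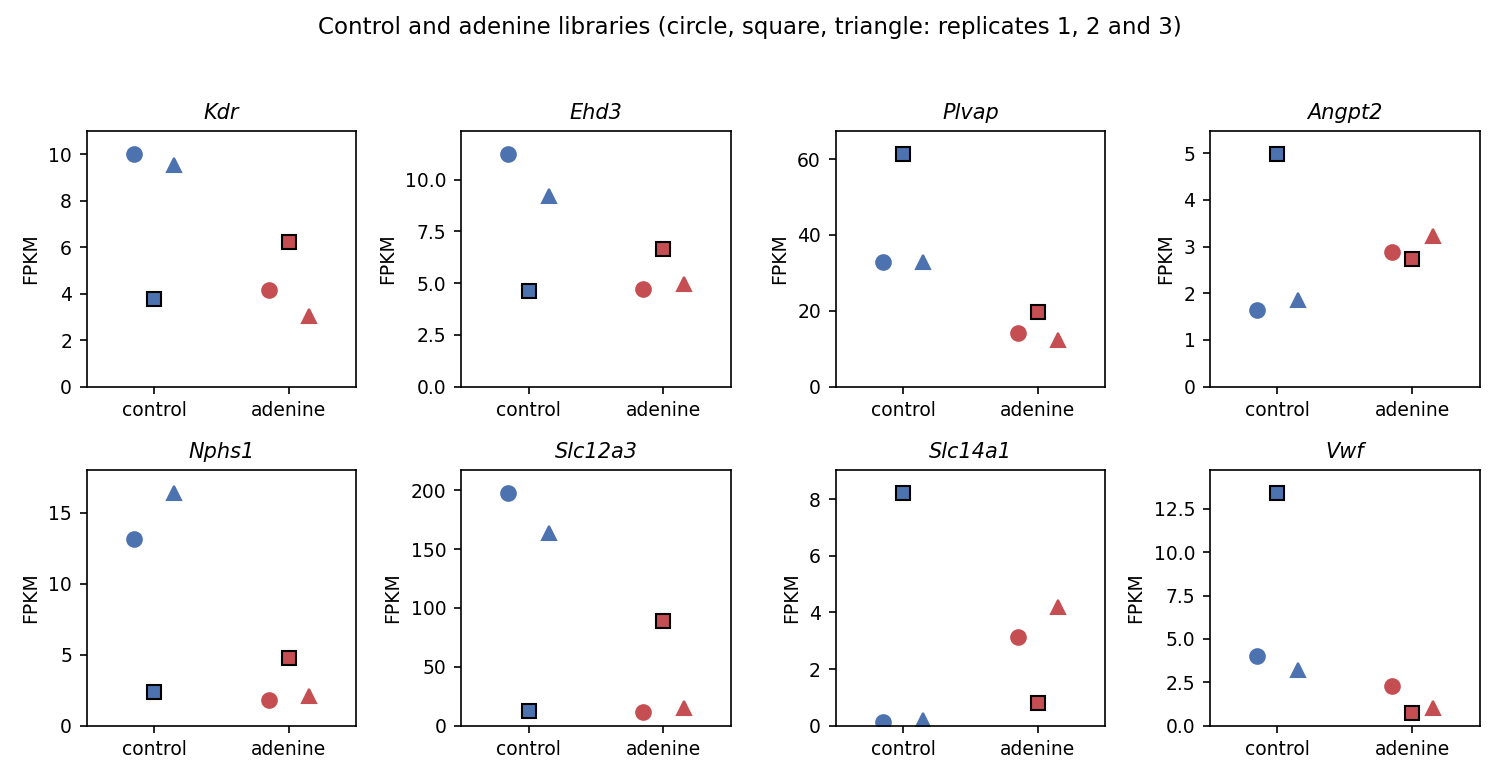
FPKM in the 3 control and 3 adenine libraries of 4 endothelial or angiogenic genes (top) and of Nphs1, Slc12a3, Slc14a1 and Vwf (bottom), on linear axes from 0. Squares with a black edge are replicate 2, which among controls has 3.77 FPKM of Kdr against 10.002 and 9.53, and 2.38 FPKM of Nphs1 against 13.2 and 16.4.

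Ratios of pairs of genes within a library do not depend on the scaling of that library. They were compared by a two-sided exact permutation test of 3 libraries against 3, which cannot give a p below 0.1, with adjustment over the 5 ratios of a model. Log2 Flt1/Kdr was -0.80, 0.35 and -0.82 in control and 1.75, 0.49 and 1.88 in adenine. All adenine libraries were higher, by 1.79 log2 units on average (exact permutation p = 0.1, adjusted 0.25), while in UUO the ratio differed by 0.08 (exact permutation p = 0.7, adjusted 0.7). Log2 Plvap/Cdh5 was lower in every library of both models than in any of its controls, by 2.26 log2 units in adenine (exact permutation p = 0.1, adjusted 0.25) and 1.73 in UUO (exact permutation p = 0.1, adjusted 0.17). In adenine its terms moved apart, Plvap down and Cdh5 up, and in UUO both rose and Cdh5 rose more.

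Log2 Ehd3/Cdh5 was 0.94, 1.62 and 1.03 in sham and -1.74, -1.52 and -0.16 in UUO, lower in each UUO library, with a difference of -2.34 (exact permutation p = 0.1, adjusted 0.17). In the adenine model the difference was -1.37 (exact permutation p = 0.2, adjusted 0.33), and the second control library, at -0.35, lay among the adenine libraries. Log2 Angpt2/Tek was higher in every UUO library than in any sham library, by 1.05 (exact permutation p = 0.1, adjusted 0.17), and in adenine by 0.69 with overlap (exact permutation p = 0.4, adjusted 0.4). Log2 Vegfa/Kdr overlapped in both models, with differences of -0.54 (exact permutation p = 0.4, adjusted 0.4) in adenine and -0.91 (exact permutation p = 0.2, adjusted 0.25) in UUO. No ratio could pass an adjusted 0.05 in this design.

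**Figure D4:**
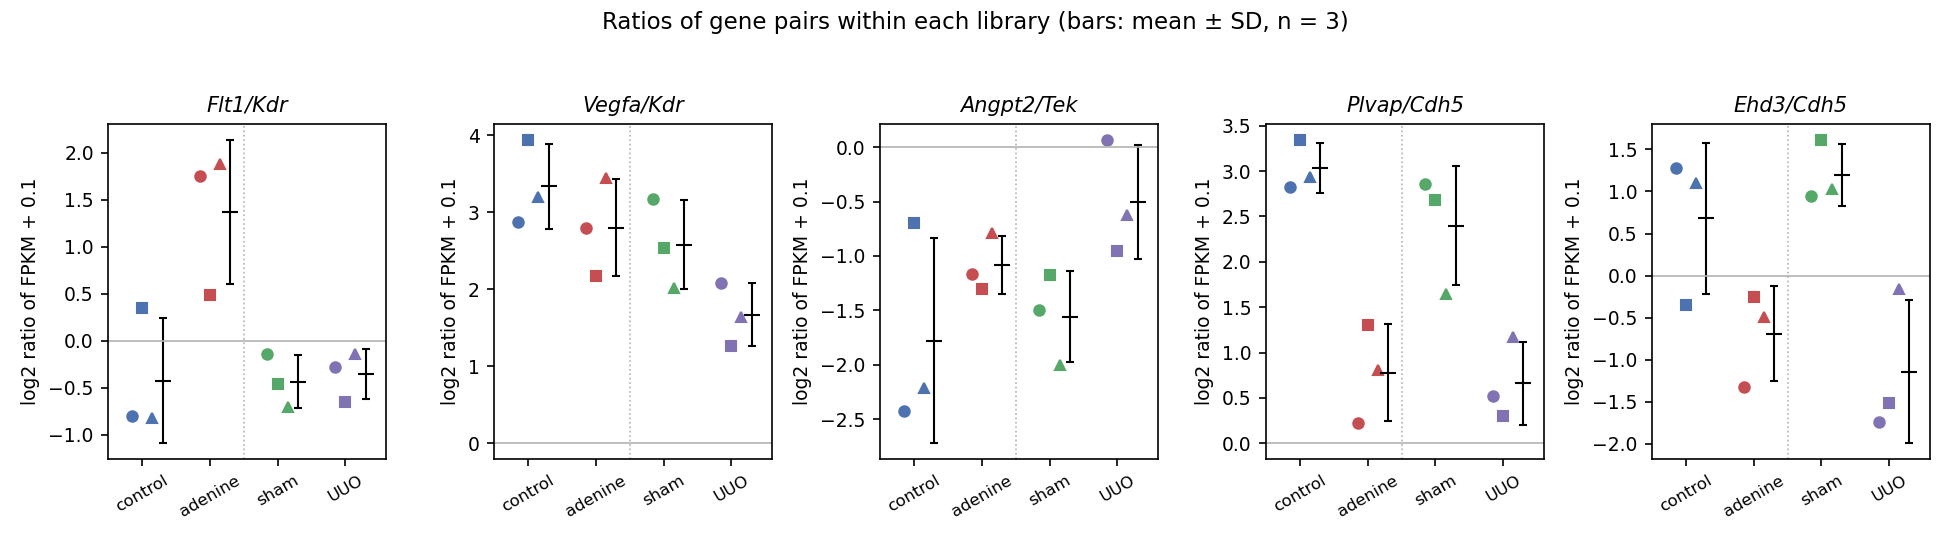
Log2 ratios of 5 gene pairs within each library, with mean ± SD of 3 libraries as black bars and a grey line at equal levels where it falls in the panel. Flt1/Kdr is higher in adenine than in control with no overlap, and Plvap/Cdh5 is lower in both models, by 2.26 and 1.73 log2 units.

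For each list of related genes below, the counts stand beside all tested entries, of which 39.6% rose and 19.9% fell in adenine and 56.1% rose and 14.4% fell in UUO, or, with median-of-ratios scaling, 28.6% and 28.7% in adenine and 27.7% and 28.3% in UUO. Of the other ligands, receptors and co-receptors of the VEGF and angiopoietin families, more than these shares rose in both models. In adenine 6 of 10 tested rose and 4 did not pass. In UUO 8 of 10 rose and Vegfb fell. Median log2 fold changes were 1.098 and 1.31, and after median-of-ratios scaling 6 rose in each model. Nrp2, a co-receptor for VEGF-C, went from 1.76 to 12.8 FPKM in adenine (log2 fold change 2.81, limma adjusted p = 5.1e-05) and from 2.42 to 19.0 in UUO (2.92, limma adjusted p = 1.3e-05). Pgf, the placental growth factor that binds FLT1, rose by 1.37 in adenine and 2.72 in UUO on the log2 scale. Flt4, the receptor for VEGF-C and VEGF-D, rose by 1.60 and 2.28. Vegfc passed in UUO, at 1.55 (limma adjusted p = 0.00013), and was -0.06 (limma adjusted p = 0.86) in adenine. Angpt1, the main agonist of TIE2, passed in neither, with -0.12 (limma adjusted p = 0.83) in adenine and 0.84 (limma adjusted p = 0.14) in UUO. Tie1, the partner of TIE2, rose in both, by 0.83 and 1.07. Thus Vegfa fell in both models while Pgf, Vegfd, Flt4, Nrp1 and Nrp2 rose in both, with the direction of each kept under median-of-ratios scaling, where Nrp1 no longer passed in UUO (0.27, limma adjusted p = 0.13).

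Most genes of endothelial tip and stalk signalling rose in UUO. Of 12 tested, 3 rose and 2 fell in adenine, and 9 rose in UUO, or 7 with median-of-ratios scaling. Dll4, the Notch ligand of tip cells, rose from 2.96 ± 0.62 FPKM (SD, n = 3) in sham to 13.5 ± 6.41 in UUO (log2 fold change 2.08, limma adjusted p = 0.0014), and was 2.60 in control and 2.75 in adenine (0.07, limma adjusted p = 0.76). Apln and Aplnr, apelin and its receptor, rose in UUO by 1.75 and 1.65 and were -0.04 and -0.40 in adenine (limma adjusted p = 0.97 and 0.31). The 3 that rose in adenine, Plxnd1 and Unc5b and Notch1, receptors for netrin and for the Notch ligands, rose in both. Plxnd1 rose more in adenine, by 2.55 (limma adjusted p = 0.00013), than in UUO, by 1.77 (limma adjusted p = 3.3e-05). Jag1 and Notch4 fell in adenine, by 0.78 and 0.72 on the log2 scale, and neither call held without control replicate 2.

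Of the inhibitors of angiogenesis, 5 of 8 tested rose in adenine (62.5%, against 39.6% of all entries) and 7 of 8 in UUO (87.5%, against 56.1%), or 4 and 6 with median-of-ratios scaling. Vash1, the gene of vasohibin-1, went from 0.39 ± 0.09 FPKM (SD, n = 3) to 11.3 ± 1.08 in adenine (log2 fold change 4.55, limma adjusted p = 2.6e-05) and from 0.91 ± 0.14 to 12.9 ± 1.12 in UUO (3.69, limma adjusted p = 1.4e-05). Adamts1, a protease that can bind VEGF, rose by 2.93 and 3.96, and the thrombospondin gene Thbs2 by 1.97 and 2.45. Thbs1 rose by 2.59 in adenine and 1.81 in UUO.

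Most of the 30 other pan-endothelial genes rose in UUO, and fewer passed in adenine. In UUO, 25 of 28 tested rose (89.3%, against 56.1% of all entries) and Vwf fell, with a median log2 fold change of 1.54. In adenine 6 of 29 rose (20.7%) and 8 fell (27.6%), with a median of -0.21. With median-of-ratios scaling 19 rose and 2 fell in UUO, and 2 rose and 13 fell in adenine. Of the genes that rose in UUO, 14 did not pass in adenine, 6 rose there too and 5 fell there. The 5 were Egfl7, Esam, Sox17, Rasip1 and Bcl6b. With median-of-ratios scaling the UUO rise of Esam (0.03, limma adjusted p = 0.89) and of Sox17 (0.50, limma adjusted p = 0.27) no longer passed, and Esam did not pass in adenine without control replicate 2 (limma adjusted p = 0.052). Sox18 and Sox7, transcription factors of endothelial cells, rose in UUO by 2.35 and 2.31, and Cd34, a surface sialomucin, by 2.28. In adenine Cd34 rose by 1.08, and Fli1, an ETS factor also found in leukocytes, by 1.73. Rasip1, needed for vessel lumens, and Cyyr1 fell in adenine by 1.18 and 1.71 on the log2 scale. Vwf, made in larger vessels, fell in both models, by 2.14 and 1.20, the first with the high second control library in its base group and still called without it (limma adjusted p = 0.038).

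**Figure D5:**
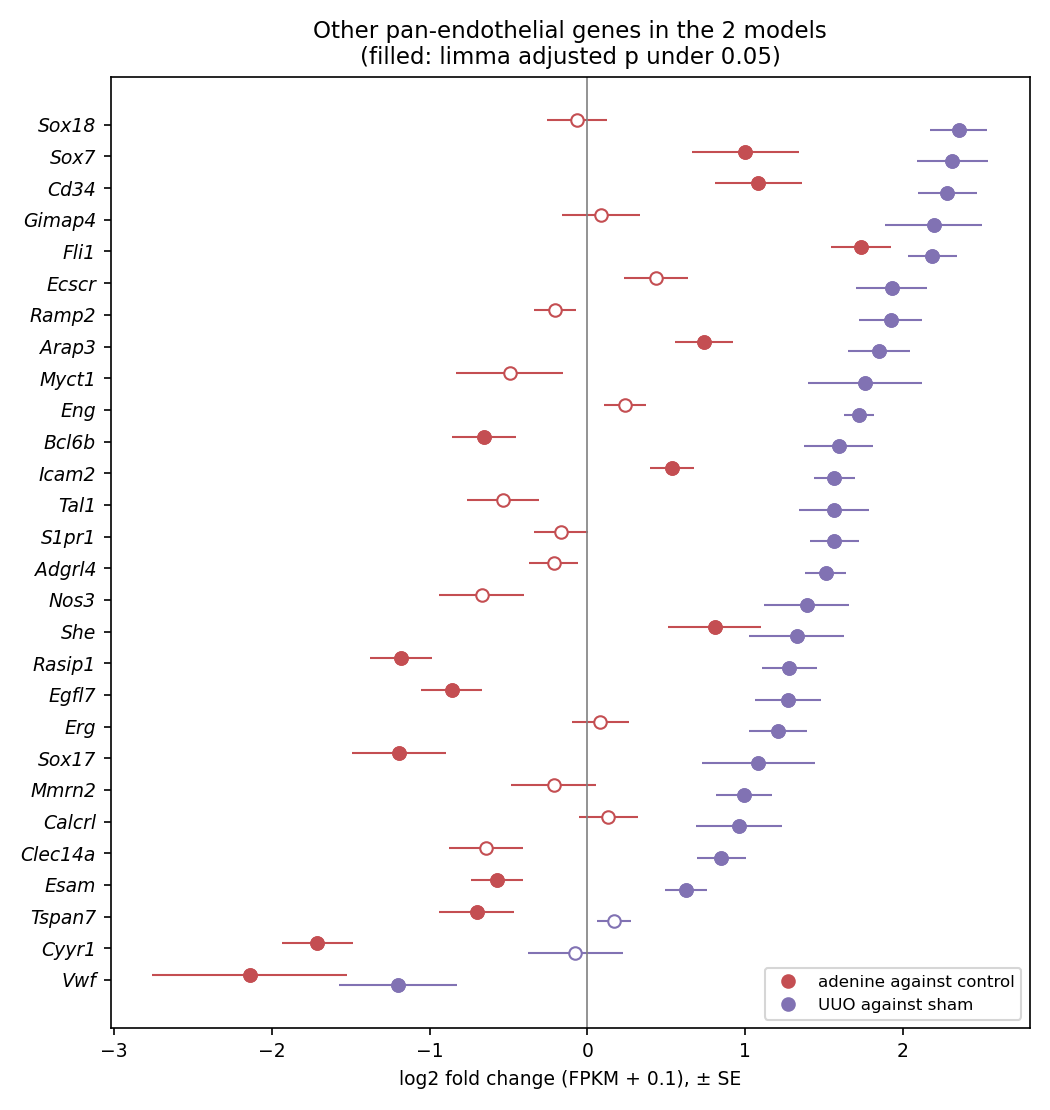
Log2 fold change ± SE of the 28 other pan-endothelial genes tested in both tables, ordered by the UUO value, for adenine (red) and UUO (purple), with filled circles at an adjusted p under 0.05, from FPKM as deposited. In UUO 25 of them rose, and in adenine the same genes lie on both sides of 0. With median-of-ratios scaling 19 rose and 2 fell in UUO.

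Genes of single vascular beds went in both directions. In the glomerular endothelial list 4 of 7 tested rose in each model (57.1%, against 39.6% of all entries in adenine and 56.1% in UUO), or 3 in adenine and 2 in UUO with median-of-ratios scaling, so the UUO count was near that of all entries. Plat, tissue plasminogen activator, rose by 1.22 in adenine and 1.76 in UUO, while Smad6, an inhibitor of BMP signalling, fell by 1.60 on the log2 scale in adenine. Lpl, lipoprotein lipase, which fat-laden cells also make, went from 35.2 ± 10.8 FPKM (SD, n = 3) to 269 ± 99.1 in adenine (log2 fold change 2.89, limma adjusted p = 0.00054). Of the peritubular and vasa recta genes 1 of 6 rose and 1 fell in adenine, and 4 of 7 rose and 1 fell in UUO, where these shares (57.1% and 14.3%) were near those of all entries. Igfbp5 fell in both, by 1.14 in adenine and by 0.63 in UUO on the log2 scale, and Igfbp3 rose in UUO by 2.17. Slc14a1 rose in UUO (3.52, limma adjusted p = 0.026), with the third sham library, at 0.06 FPKM, far under the 3.11 and 2.82 of the others, and the call was lost with median-of-ratios scaling (adjusted p = 0.065).

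Of the arterial genes 3 of 6 fell in adenine and none rose. They were Cxcl12, Sox17 and Fbln5, which fell by 1.37, 1.19 and 0.68 on the log2 scale. In UUO 4 of 6 rose, among them Gja4, the connexin 37 gene, by 1.84 and Fbln5, fibulin-5 of elastic vessels, by 1.72. With median-of-ratios scaling 4 fell in adenine and 3 rose in UUO, where Sox17 no longer passed. Of the venous and lymphatic genes 5 of 8 rose in adenine (62.5%) and 7 of 8 in UUO (87.5%). With median-of-ratios scaling 5 rose in each model and 1 fell in each, Nr2f2 in adenine and Prox1 in UUO. Ccl21, the lymphatic chemokine, rose by 2.14 and 3.51, Pdpn, podoplanin, by 2.23 and 2.62, and Lyve1, which macrophages can also express, by 1.66 and 2.17. Pdpn was 2.61 FPKM in control replicate 2 against 8.56 and 8.95 in the other controls. The summed podocyte markers were also lowest in that library, and whether podocytes or other cells gave part of the Pdpn values was not tested. Without that library the adenine rises of Ccl21 and Pdpn were smaller, 1.70 and 1.66, and still passed. Prox1, the factor that defines lymphatic endothelium, passed in neither before that scaling (0.02 and -1.06, limma adjusted p = 0.95 and 0.098).

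Adhesion molecules that activated endothelium shows to leukocytes were counted in the same list as junction molecules such as Jam2. Of this list 3 of 6 tested rose in adenine, Icam1, Selp and Vcam1, and 6 of 6 rose in UUO. Of all tested entries 39.6% rose in adenine and 56.1% in UUO. The adenine share of this list, 50.0%, was thus not far above that of all entries. Icam1 went from 5.78 ± 0.54 to 59.0 ± 5.75 FPKM (SD, n = 3) in adenine and from 7.87 ± 1.85 to 60.4 ± 5.90 in UUO, with log2 fold changes of 3.33 and 2.95. Selp, P-selectin of endothelium and platelets, rose by 2.83 and 2.96, and Vcam1 by 1.82 and 2.38. Whether endothelium or other cells, such as leukocytes or tubule cells, gave these rises was not tested. Hypoxia-induced genes, which share regulators with Vegfa, went both ways. In adenine 6 of 11 rose and Ankrd37 fell, and in UUO 5 of 11 rose and 4 fell, or 2 that rose with median-of-ratios scaling. Hk2, hexokinase 2, rose by 4.21 and 2.71, while Pgk1, phosphoglycerate kinase 1, fell by 0.61 on the log2 scale in UUO and was -0.13 in adenine (limma adjusted p = 0.29).

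Many markers of other cells also changed in both models. Pericyte and mural cell markers rose in 7 of 8 in adenine and 8 of 8 in UUO, and their summed FPKM was 43.8 to 52.0 in control, 128 to 138 in adenine, 43.5 to 55.9 in sham and 187 to 261 in UUO. Leukocyte and platelet markers rose in 7 of 9 in adenine and 7 of 8 in UUO, with sums of 27.1 to 29.3 in control, 485 to 764 in adenine, 25.1 to 35.1 in sham and 207 to 244 in UUO. Itga2b, the platelet integrin, fell in both. Ppbp was listed at 0.0001 in at least 1 library of the sham and UUO table. Tubule markers, the cells around the peritubular capillaries and a source of Vegfa, fell in 5 of 9 and 7 of 9, with sums of 2144 to 3512 in control, 279 to 610 in adenine, 3347 to 4214 in sham and 238 to 383 in UUO. Podocyte markers rose in 1 and fell in 1 of 7 in adenine, and rose in 2 and fell in 1 of 7 in UUO, with sums of 36.7 to 225, 62.0 to 103, 145 to 235 and 101 to 140 in the same order of groups. The part of these cells in the members' values was not tested.

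The genes nearest to each member over the 12 libraries were named by the smallest root mean square difference of centred log2(FPKM + 0.1) among 13486 symbols tested in both tables. For Cdh5 they were Arhgef25, Sox7 and Mcam, at 0.19, 0.20 and 0.20 log2 units, of which Sox7 and Mcam are on the endothelial and mural lists. Angpt2 was nearest to Jam2, an endothelial junction molecule, at 0.22, and then to Cldn15 and Rpl35a. Kdr was nearest to Npr3, on the peritubular list, at 0.24, followed by Slc29a1 and Daam2. Ehd3 was nearest to Tsc22d2, Tnfaip8 and Slc29a1, between 0.22 and 0.25. Emcn was nearest to Tbxa2r, the thromboxane receptor, at 0.16, then Nr2f6 and Mfsd3, and Plvap to Fam189b, Rbm38 and Ripor3 from 0.25 to 0.27. Vegfa was nearest to Abcb6, Ufsp1 and Mocs2, Flt1 to Ndufaf7, Nfe2l2 and Rufy1, and Tek to Sppl2b, Dgka and Srsf2, all between 0.13 and 0.19. All of them share the same libraries, and with 4 groups many genes fall close to any pattern.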

How the data were processed

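RNA of renal tissue from 12 rats was sequenced as paired reads from poly(A) libraries. Per the labels, RNA was isolated by TRIzol and processing tools included cutadapt 1.9, HISAT2 2.0.4, StringTie 1.3.4d, edgeR and DESeq2, with no role given. The authors deposited FPKM values per gene in 2 tables, and the genome build and annotation are not given in the sources used here. All per-sample columns were used. Groups came from the labels. FPKM holds no read count, so depth is unknown, and no interval or floor was calculated. Rats are separate animals, and each p-value is for a difference between groups of 3 rats. In limma the spread within groups was moderated over all tested entries.

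Each table was fitted by itself with limma 3.58.1 (lmFit, eBayes with trend) in R 4.3.3 on log2(FPKM + 0.1), for entries that reached 0.5 FPKM in 3 or more of 6 libraries. The pseudocount brings changes of low genes nearer to 0. Other steps used Python 3.11.15, numpy 2.4.6, pandas 2.3.3 and scipy 1.17.1. The fits were run on simulated data with planted rises and falls, equal in number and larger than any member's change. Those data held no shift between libraries, so they could not test the scaling or smaller changes. A DEG follows the study's threshold of 2 on the log2 scale. The study used DESeq2, which was not used here. Alternatives were median-of-ratios scaling, rescaling to the same sum, filters of 1 FPKM or none, 1 or 0.01 as pseudocount, eBayes with no trend, a replicate block, and each library left out. Leaving out control replicate 2 from the list counts, and together with median-of-ratios scaling, was chosen after seeing the data.

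The 10 genes and 14 lists (other VEGF and angiopoietin genes, tip and stalk signalling, inhibitors, other pan-endothelial, glomerular, peritubular and vasa recta, arterial, venous and lymphatic endothelium, adhesion molecules, hypoxia-induced genes, and markers of mural cells, leukocytes and platelets, podocytes and tubules) were chosen with earlier results of these data known. Nrp1, Sox17 and Flt4 are each on 2 lists. Named list genes are at most 4 per list and table with the largest change among changed entries whose groups do not overlap, plus the genes nearest to each member. Vegfb, Vegfc, Angpt1, Tie1, Apln, Aplnr, Notch4, Egfl7, Esam, Rasip1, Bcl6b, Nr2f2, Prox1, Pgk1, Itga2b, Slc12a3, Nphs1 and Ppbp fall outside that rule and were named after their values were seen. Some genes that the lists and this rule take in are not reported here. Promoters are from RefSeq tables of GRCr8.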

Additional observations from a re-analysis of the deposited data

Results flagged for a closer look

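Only the members and the list genes named by the rule above were searched for opposite directions, and that rule itself takes genes without overlap. In 5 of them every library of the adenine group lay below all controls while every UUO library lay above all sham libraries. Groups did not overlap, in either direction, for 68.0% of all tested entries in adenine and 75.7% in UUO. The share of all entries with opposite directions was not counted. Tek had a log2 fold change of -0.46 in adenine and 0.85 in UUO. Plvap had -1.42 and 0.75. Of the arterial genes, Gja4 had -0.48 (limma adjusted p = 0.089) and 1.84, Fbln5 had -0.68 and 1.72, and Sox17, which is also on the pan-endothelial list, had -1.19 and 1.08. With median-of-ratios scaling the UUO values of Tek (0.26, limma adjusted p = 0.12), Plvap (0.15, limma adjusted p = 0.53) and Sox17 (0.50, limma adjusted p = 0.27) did not pass. The difference between the models was not tested, since the tables were made separately.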

How the results depend on the processing

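Median-of-ratios scaling moved the most results. With it the members that rose and fell were 1 and 4 in adenine, with 1 DEG (1 that rose, 1 DEG without control replicate 2), and 2 and 2 in UUO, with 0 DEGs. It turned Angpt2 in adenine to -0.053, and Kdr, Flt1, Emcn and Ehd3 in UUO to -0.32, -0.24, -0.33 and -0.45. Of the lists in adenine, it gave 4 tip and stalk genes that fell, 2 pan-endothelial genes that rose and 13 that fell, 2 peritubular, 1 venous and lymphatic and 3 hypoxia-induced genes that fell. In UUO it gave 1 tip and stalk, 2 pan-endothelial, 1 glomerular, 1 venous and lymphatic gene and 3 podocyte markers that fell, and 2 glomerular, 2 peritubular, 2 hypoxia-induced genes and 1 podocyte marker that rose. FPKM rescaled to the same sum gave 0 members that fell and 2 DEGs in UUO, 0 tip and stalk genes and 5 pan-endothelial genes that fell in adenine, 1 arterial gene, 5 adhesion genes and 2 podocyte markers that rose there, and 0 peritubular genes that fell in UUO. With no filter 0 members fell in UUO, where Vegfa had an adjusted p of 0.066 and Plvap of 0.051.

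Without control replicate 2, in adenine, 0 tip and stalk, 2 glomerular, 3 peritubular genes and 4 podocyte markers fell, and 2 peritubular genes and 2 podocyte markers rose. With 1 library left out at a time, members that rose ranged from 1 (without control replicate 1 or 3) to 3 in adenine and from 4 to 7 (without sham replicate 3) in UUO, UUO DEGs from 1 to 2, Angpt2 in adenine from -0.050 to 0.72, Ehd3 in UUO from -0.11 to 0.28 and the log2 Flt1/Kdr difference in UUO from -0.058 to 0.22. The cause of these changes was not tested. Depth is unknown, so the limit it sets could not be given.

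Samples of the same replicate number are not stated to share a litter, batch or day, and whether they do is unknown. Correlations of their deviations from the group means were -0.12 to -0.05 in the adenine table and 0.05 to 0.11 in the UUO table, where each library correlated best with its own number. With the replicate block 2 members rose and 3 fell in adenine, Tek no longer passing (adjusted p = 0.066), and 5 rose and 1 fell in UUO, Emcn passing (adjusted p = 0.036). It changed no other member's call.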
